A study of Homo sapiens with 18 samples.

Results

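The cytosolic heat shock proteins described here are the products of 10 genes: HSPA8, HSPA4, HSPH1, DNAJA1, DNAJB1, DNAJB6, HSP90AA1, HSP90AB1, HSPB1 and HSF1. The members were all probe sets annotated to exactly 1 of these genes, and they came from 9 of the 11963 genes that had a probe set of their own. They numbered 20 of the 22215 probe sets left after control probe sets were removed: 4 each for HSPA4 and HSP90AA1, 2 each for HSPH1, DNAJA1, DNAJB1, HSP90AB1 and HSF1, and 1 each for DNAJB6 and HSPB1. HSPA8 had 0 probe sets of its own, since its 3 probe sets were also annotated to small nucleolar RNA genes, and it has no values here. DNAJB6 had 2 further probe sets annotated to a second gene, which were not used. All 20 members passed the filter on low signal. The cells were SH-SY5Y, a line grown from a human neuroblastoma, with traits of noradrenergic neurons. They were exposed to sarin, an organophosphate nerve agent that inhibits acetylcholinesterase, at 5 ppm for 3, 24 or 48 h, or left untreated for the same times. Each of the 6 groups had 3 Affymetrix arrays, 18 in all. The labels give 6 flasks to each group and do not say which flask went on which array. The p-values thus reflect only scatter among the arrays of a group, which may be technical. The fit pools that scatter over all 6 groups, the 48 h sarin arrays included. A probe set therefore has the same standard error for the sarin effect at each time.

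Cytosolic chaperones bind unfolded or partly folded proteins and use ATP to help them fold, or hand them on for breakdown. Hsp70 proteins work with J proteins, which bring clients and start ATP hydrolysis, and with nucleotide exchange factors, which release the client. Hsp90 proteins act later on kinases, hormone receptors and other clients, small heat shock proteins hold aggregation-prone proteins without ATP, and HSF1 is the transcription factor that switches many of these genes on when unfolded proteins build up.

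HSF1 binds DNA at the heat shock element, a row of inverted GAA units. Promoter windows of RefSeq (assembly GRCh38.p14), which run from 250 bases before to 50 bases after each start, were searched for 3 such units in a row: GAA, any 2 bases, TTC, any 2 bases, GAA, or its reverse complement, TTC, any 2 bases, GAA, any 2 bases, TTC. Searching both covers both strands. A match was present in 172 of 35116 windows (0.49%) and in 166 of 27305 genes (0.608%). Of the 9 member genes with a window, 5 had a match: HSPA8, HSP90AA1, HSP90AB1, DNAJA1 and DNAJB6. HSPA4, HSPH1, HSPB1 and DNAJB1 had none in their windows, which says only that these letters are not there. The matching stretches of the 4 genes that also have values are shown so that the element can be read in its place, and no result below was tested against it. They lie at chr14:102087090-102087162 on the minus strand (HSP90AA1), chr6:44247748-44247873 on the plus strand (HSP90AB1), chr9:33025246-33025292 on the plus strand (DNAJA1) and chr7:157336843-157336915 on the plus strand (DNAJB6). Capitals mark the motif, 5′ to 3′ in the direction of the gene.
HSP90AA1: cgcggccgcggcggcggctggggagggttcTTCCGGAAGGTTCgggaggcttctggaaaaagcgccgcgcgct
HSP90AB1: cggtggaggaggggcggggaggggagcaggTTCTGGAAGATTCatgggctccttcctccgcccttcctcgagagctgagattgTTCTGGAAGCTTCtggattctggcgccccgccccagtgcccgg
DNAJA1: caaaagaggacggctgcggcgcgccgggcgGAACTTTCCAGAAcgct
DNAJB6: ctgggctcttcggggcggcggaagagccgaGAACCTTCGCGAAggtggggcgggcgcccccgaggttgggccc
The motif lay upstream of the start in HSP90AA1, in HSP90AB1, which had it at 2 places, and in DNAJB6, and just downstream of the start in DNAJA1. The start meant is that of the matching window. HSP90AA1 and HSP90AB1 also have windows at other starts, which held no match. A match is a description of the sequence and was not tested for binding.

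Signals are the deposited MAS5 values, a linear hybridisation intensity set to 1 common trimmed mean per array. Of the 18 arrays, the 3 with sarin at 48 h were unlike the remaining 15. The ratio of 3′ to 5′ GAPDH signal, which rises when RNA is degraded, was 2.15 to 2.30 on these 3, against 0.696 to 1.17 on the other arrays, and the ACTB ratio was 3.68 to 4.67 against 0.790 to 1.64. The background, set at the 90th percentile of the signals of 27 bacterial probe sets with no spiked target, was 411 to 443 in signal on these 3 arrays and 97.0 to 183 on the others. Of 10 measured markers of noradrenergic neuroblastoma cells, 8 were above background on all 18 arrays, among them DBH, PHOX2A and GATA3, and TH was above it on none. The arrays that stand apart are all those of 1 group, so their quality and the 48 h exposure cannot be told apart.

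After 3 h, none of the 20 heat shock probe sets had an adjusted p under 0.05 in limma, and neither did any of the 13329 probe sets tested (0%). At an unadjusted p under 0.05 stood 2 members and 1363 of all probe sets. The members' median log2 change was 0.06, with a range of -0.47 to 0.68, against a median of 0.00 over all probe sets. The 2 members were HSPA4 211015_s_at, at 0.68 ± 0.25 (SE; adjusted p = 0.373), and HSPH1 206976_s_at, at -0.47 ± 0.20 (adjusted p = 0.423). On HSPA4 211015_s_at the 3 h signals were 1409.8, 2102 and 1854 with sarin, against 1644, 1237.5 and 647 without, so the groups overlapped. The arrays did not overlap for 2 members, DNAJA1 200881_s_at, lower with sarin at -0.16 ± 0.14 (adjusted p = 0.726), and HSF1 213756_s_at, higher at 0.42 ± 0.26 (adjusted p = 0.606). Of all probe sets 14.1% did not overlap, 7.57% higher and 6.56% lower.

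After 24 h, 5 probe sets of 4 genes were higher in sarin-exposed cells and 0 were lower. They were DNAJA1 200881_s_at, HSPA4 211015_s_at and 208815_x_at, DNAJB6 209015_s_at and HSPH1 208744_x_at, with log2 changes of 0.57 to 0.92. Over all probe sets tested, 6.98% passed, 3.32% higher and 3.66% lower. The members' median was 0.34, against -0.10 over all probe sets, and 17 of the 20 lay above 0, against 41.4% of all. The members lay between percentiles 50.2 and 99.2 of mean log2 signal. In a fit of only the upper 40% of probe sets by mean log2 signal, 465 were higher and 415 lower, with a median of -0.02. Of the members in that fit 5 were higher and 0 lower, with a median of 0.34. For 13 members the signals of the 2 groups did not overlap, 11 of them higher and 2 lower, where 38.9% of all probe sets did not overlap, 15.3% higher and 23.6% lower. The count of members depended on the scaling. It was 12 higher and 0 lower with arrays centred on their medians, 3 and 0 after quantile normalization, and 0 and 0 with arrays scaled to the hybridisation spike-ins, while the counts over all probe sets were 1535 higher and 158 lower, 254 and 221, and 23 and 15, against 442 and 488 as deposited. The median over all probe sets was 0.19, -0.02 and -0.06 under these 3 scalings, and the members' median was 0.63, 0.21 and 0.38.

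Other array measures also differed between the 24 h groups. Sarin arrays had GAPDH ratios of 1.05 to 1.17, against 0.811 to 0.941 on control arrays, and median signals of 314.9 to 345 against 397 to 414. The summed signal of the 10 noradrenergic markers was 107205 to 109366 with sarin and 89412 to 99413 without. That of 4 glial markers was 418 to 486 against 735.5 to 903, of 5 fibroblast and matrix markers 5017 to 5286 against 5331 to 6137, of 4 blood and immune markers 761 to 983 against 1058 to 1832.5, and of 3 endothelial markers 473 to 578 against 731 to 860.4. Above background on all 18 arrays were 1 of the 4 glial, 4 of the 5 fibroblast and matrix, 2 of the 4 blood and immune and 1 of the 3 endothelial markers, and the glial marker S100B and the endothelial marker CDH5 were above it on none. The background for a single probe set was also lower, at 112 to 127 with sarin and 135 to 183 without. Lower glial, blood and immune or endothelial sums therefore need not mean less marker RNA. The part of these differences in the heat shock results was not tested. In bulk RNA, fewer cells of a kind and less RNA per cell cannot be told apart.

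After 48 h, 18 of the 20 probe sets were lower in sarin-exposed cells and 1 was higher, with at least 1 lower probe set for each of the 9 genes. Over all probe sets tested, 68.8% passed, 34.3% higher and 34.5% lower. The members' median log2 change was -1.58, against 0.03 over all probe sets, and the sarin arrays lay wholly below the control arrays for 17 members and wholly above them for 0, where 33.6% of all probe sets lay below and 35.7% above, 69.3% in all. These are the arrays with the high 3′ over 5′ ratios and the high background given above. In a fit of only the upper 40% of probe sets by mean log2 signal, 2342 were higher and 3967 lower, with a median of -0.32. Of the members in that fit 0 were higher and 16 lower, with a median of -1.52. The summed signal of the noradrenergic markers was 49034 to 59271 with sarin and 91969.5 to 96216 without, and that of the fibroblast and matrix markers 5351 to 5959 against 6511 to 7808. The glial sum was 1112 to 1606 against 606 to 794, the blood and immune sum 3465 to 3782 against 1312 to 1433, and the endothelial sum 1099.9 to 1369 against 485 to 833. These 3 sums are over 4, 4 and 3 probe sets. The background for a single probe set was 411 to 443 with sarin and 103 to 161 without, so higher sums need not mean more marker RNA. The part of the marker sums in the result was not tested. Counts of members were 0 higher and 19 lower after median centring, 2 and 17 after quantile normalization, and 0 and 20 with spike-in scaling, while all probe sets gave 2583 higher and 6457 lower, 3819 and 5245, and 58 and 10674. Those scalings moved the median of all probe sets to -0.54, -0.18 and -2.03, and that of the members to -2.15, -1.04 and -3.64.

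**Figure D1:**
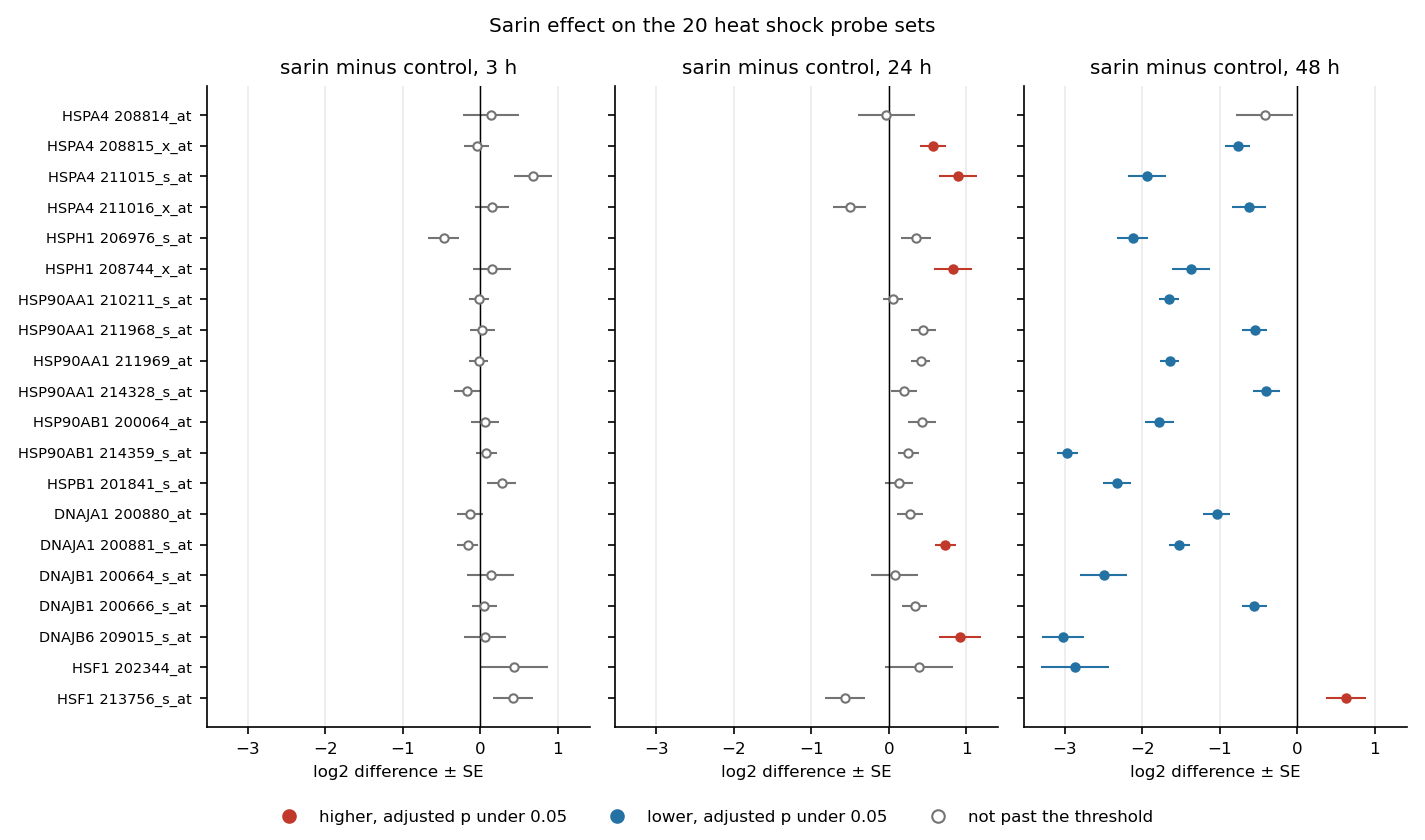
Log2 difference of sarin-exposed minus control cells (x axis, with standard error bars) for each of the 20 heat shock probe sets (rows) at 3, 24 and 48 h, with 3 arrays per group. Filled points passed an adjusted p of 0.05: 0 at 3 h, 5 higher at 24 h, and 18 lower and 1 higher at 48 h. At 48 h HSF1 213756_s_at was lower instead with spike-in scaling, and HSP90AA1 211968_s_at and 214328_s_at were higher after quantile normalization. The 48 h points of HSPA4 211015_s_at, DNAJB6 and HSF1 202344_at rest on sarin signals at or below background, and those of HSPA4 208814_at, HSPH1 208744_x_at and DNAJB1 200664_s_at do so in part.

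**Figure D2:**
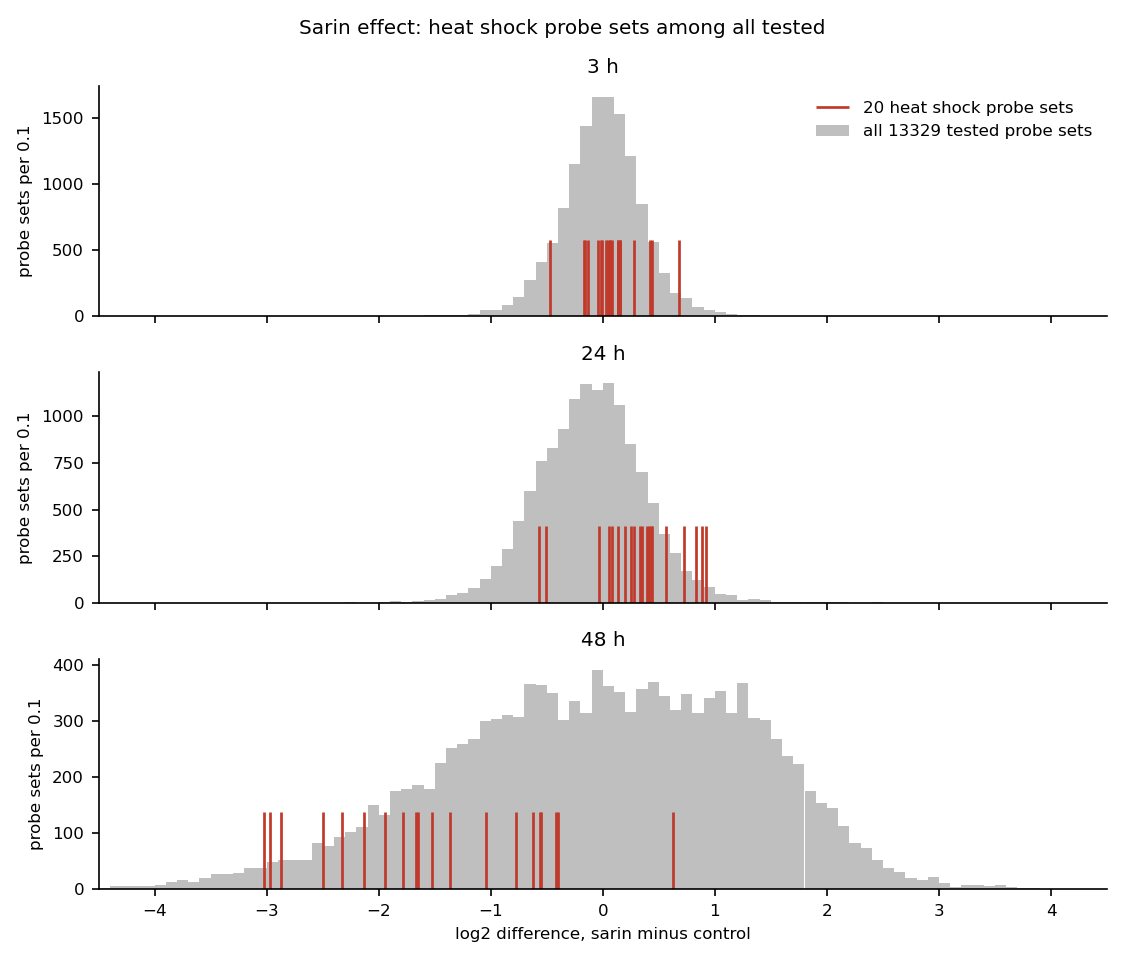
Distribution of the log2 difference, sarin minus control, over the 13329 probe sets tested (grey, count per 0.1) at 3, 24 and 48 h, with the 20 heat shock probe sets as red lines. The members' medians were 0.06, 0.34 and -1.58, against 0.00, -0.10 and 0.03 over all probe sets. The grey distribution is far wider at 48 h than at 3 h.

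HSF1, the regulator, had 2 probe sets that differed from each other. HSF1 202344_at had signals of 424, 531 and 725 in sarin-exposed cells at 24 h, against 555, 195 and 642 in controls (log2 change 0.39 ± 0.44; adjusted p = 0.629). At 48 h it had 51.4, 45.3 and 93.5 with sarin, against 506.5, 588 and 543 without. All 3 sarin values at 48 h were below background, which makes the signal at least 1.28-fold lower. The test was of the fitted change (adjusted p = 1.39e-05) and not of this bound. HSF1 213756_s_at had 261, 353 and 352 with sarin at 24 h, against 470.5, 458 and 514 in controls, a log2 change of -0.57 ± 0.26 that did not pass the test (adjusted p = 0.189) although the groups did not overlap. At 48 h the same probe set had 431, 730.1 and 768 with sarin, against 404, 343 and 457 without. It was the 1 member that rose at 48 h, by 0.63 ± 0.26 (adjusted p = 0.0399), with 1 sarin array inside the range of the controls. This call was lost in 4 of the 6 fits that left out 1 array, and with spike-in scaling the value was -1.43. The background was 411 to 443 on the 48 h sarin arrays, against 103 to 161 on the 48 h controls. Its part in this rise was not tested.

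HSPA4 and HSPH1 belong to the Hsp110 branch of the Hsp70 family, large proteins that act as nucleotide exchange factors for Hsp70. HSPA4 211015_s_at had 1988, 2048 and 2102 in sarin-exposed cells at 24 h, against 1165, 983 and 1155 in controls. Its groups were well apart, at a log2 change of 0.89 ± 0.25 (1.85-fold; adjusted p = 0.0359). HSPA4 208815_x_at had 2449, 2593.5 and 2426 with sarin, against 1727, 1709 and 1590.1 without, and was 0.57 ± 0.17 higher (1.48-fold; adjusted p = 0.0438). The other HSPA4 probe sets did not follow. HSPA4 211016_x_at had 788, 862 and 694 with sarin at 24 h, against 985, 1316 and 1057 in controls, at -0.50 ± 0.22 (adjusted p = 0.161). It went the opposite way, with all sarin arrays below all controls. HSPA4 208814_at was at -0.03 ± 0.37 (adjusted p = 0.967).

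At 48 h 3 of the 4 HSPA4 probe sets were lower. HSPA4 211015_s_at had 262, 365 and 362 with sarin, none above background, against 1309, 1207 and 1395.5 without, so it was at least 3.01-fold lower. The test was of the fitted change (adjusted p = 1.5e-06) and not of this bound. HSPA4 208815_x_at had 1362, 987 and 799 with sarin, against 1762, 1785 and 1740.4 without, and fell by 0.77 ± 0.17 on the log2 scale (adjusted p = 0.000432). Neither pair of groups overlapped. HSPA4 211016_x_at had 642, 879.8 and 989.9 against 1159, 1526 and 1181, and fell by 0.62 ± 0.22 (adjusted p = 0.0157). HSPA4 208814_at had 884, 189 and 733 with sarin, with the second of these below background, against 629.5, 784 and 627 in controls. It was the 1 member that did not pass the test at 48 h, at -0.42 ± 0.37 (adjusted p = 0.314).

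HSPH1 208744_x_at had 2864, 2749 and 2588 in sarin-exposed cells at 24 h, against 1514, 1537 and 1541 in controls. The sarin arrays averaged 2734 ± 139 and the control arrays, which lay very close together, 1531 ± 14.7 (SD, n = 3 each), a log2 change of 0.83 ± 0.25 (1.78-fold; adjusted p = 0.0473). The 3 h control arrays of 208744_x_at were higher than those of 24 h, at 2035 to 2436, without overlap. That difference, -0.54 ± 0.25 for 24 against 3 h, did not pass the test (adjusted p = 0.191). The 48 h controls had 1121 to 1629. The second probe set, 206976_s_at, had 6876, 7344 and 7539 with sarin, against 4714, 5832 and 6676 without, at 0.35 ± 0.20 (adjusted p = 0.289). Both probe sets were lower at 48 h. HSPH1 206976_s_at had 1043, 1252 and 1341 with sarin, against 3831, 6457 and 6090.5 without, and fell by 2.13 ± 0.20 (adjusted p = 2.63e-08). HSPH1 208744_x_at had 295, 614 and 798 with sarin, of which 2 were above background, against 1629, 1448 and 1121 without. It was lower (adjusted p = 8e-05), at a fitted -1.37 ± 0.25 that rests in part on the 1 signal below background.

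DNAJA1 is a J protein and a main partner of cytosolic Hsp70. Its probe set 200881_s_at had the smallest adjusted p of the 20 members at 24 h. DNAJA1 200881_s_at had 11250, 11349 and 9992 in sarin-exposed cells, against 5718, 7201 and 6801 in controls. The lowest sarin array was well above the highest control, at a log2 change of 0.73 ± 0.14 (1.66-fold; adjusted p = 0.00385). The call held in all 6 fits that left out 1 array, and was lost after quantile normalization, at 0.54 (adjusted p = 0.0518), and with spike-in scaling, at 0.77 (adjusted p = 0.379). DNAJA1 200880_at had 4326, 5174 and 5938 with sarin, against 4096, 4371 and 4192 without, at 0.27 ± 0.17 (adjusted p = 0.34), and its groups overlapped. At 48 h both were lower. DNAJA1 200881_s_at had 2510.5, 1814 and 2422 against 6509.5, 6670.4 and 6110.1 (-1.52 ± 0.14; adjusted p = 1.52e-08), and 200880_at had 2523, 1563 and 2246 against 4769, 4145.5 and 3971 (-1.04 ± 0.17; adjusted p = 2.96e-05).

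The 24 h control arrays of DNAJA1 200881_s_at were themselves lower than those at 3 h. Control cells had 5718, 7201 and 6801 at 24 h and 8523, 9291 and 9408 at 3 h, a log2 change of -0.47 ± 0.14 (adjusted p = 0.0483). This call was lost in all 6 fits that left out 1 array. The ACTB ratio was 1.46 to 1.504 on the 24 h control arrays and 0.790 to 1.14 on those of 3 h, and the median signal 397 to 414 against 310.2 to 339, and their part in the result was not tested. The 48 h control arrays were as low, at -0.50 ± 0.14 against 3 h, which did not pass the test (adjusted p = 0.136). Against the controls of 3 and 48 h together, the 24 h sarin arrays were higher by 0.51 (adjusted p = 0.00824).

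DNAJB6, a J protein known for holding back the aggregation of polyglutamine proteins, had the largest fitted difference of the members at 24 h. DNAJB6 209015_s_at had 1141, 1259 and 1303 in sarin-exposed cells, against 586, 568.5 and 803 in controls, at 0.92 ± 0.27 (1.89-fold; adjusted p = 0.0471), with no overlap. At 48 h it had 42.5, 57.3 and 91.3 with sarin, all below background, against 579.6, 658 and 605 without, which makes it at least 1.44-fold lower. The test was of the fitted change (adjusted p = 1.62e-08) and not of this bound. DNAJB1, a J protein strongly induced by heat in many cells, did not pass the test at 24 h. DNAJB1 200664_s_at had 1159, 1164 and 1120.4 with sarin, against 1101, 954 and 1222 without, at 0.08 ± 0.31 (adjusted p = 0.903). DNAJB1 200666_s_at had 2992.5, 2993 and 2748 with sarin, against 2375, 2058 and 2492 without, at 0.34 ± 0.16 (adjusted p = 0.209), without overlap. At 48 h 200664_s_at had 473, 149 and 129, with 1 of these above background, against 1434.5, 1155 and 1225, and was lower (adjusted p = 9.58e-07). Its fitted log2 change of -2.50 ± 0.31 rests in part on the 2 signals below background and is no measured size. DNAJB1 200666_s_at fell less, with 1857, 1120.1 and 1596 against 2488.5, 2063 and 2085 (-0.56 ± 0.16; adjusted p = 0.005).

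The 4 calls at 24 h other than DNAJA1 were close to the threshold. HSPA4 211015_s_at and 208815_x_at, DNAJB6 and HSPH1 208744_x_at each lost the call in every one of the 6 fits that left out 1 array, with adjusted p-values of 0.0582 to 0.178 and log2 changes of 0.53 to 1.07. Across all alternative fits they passed in 10 of 19, 9 of 20, 9 of 19 and 6 of 19. The next member outside the threshold was HSP90AA1 211969_at, with an adjusted p = 0.0506. In a fit of the 6 arrays of 24 h alone, 8 members were higher and 0 lower. The count over all probe sets rose as well in that fit, to 2333 from 930.

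**Figure D3:**
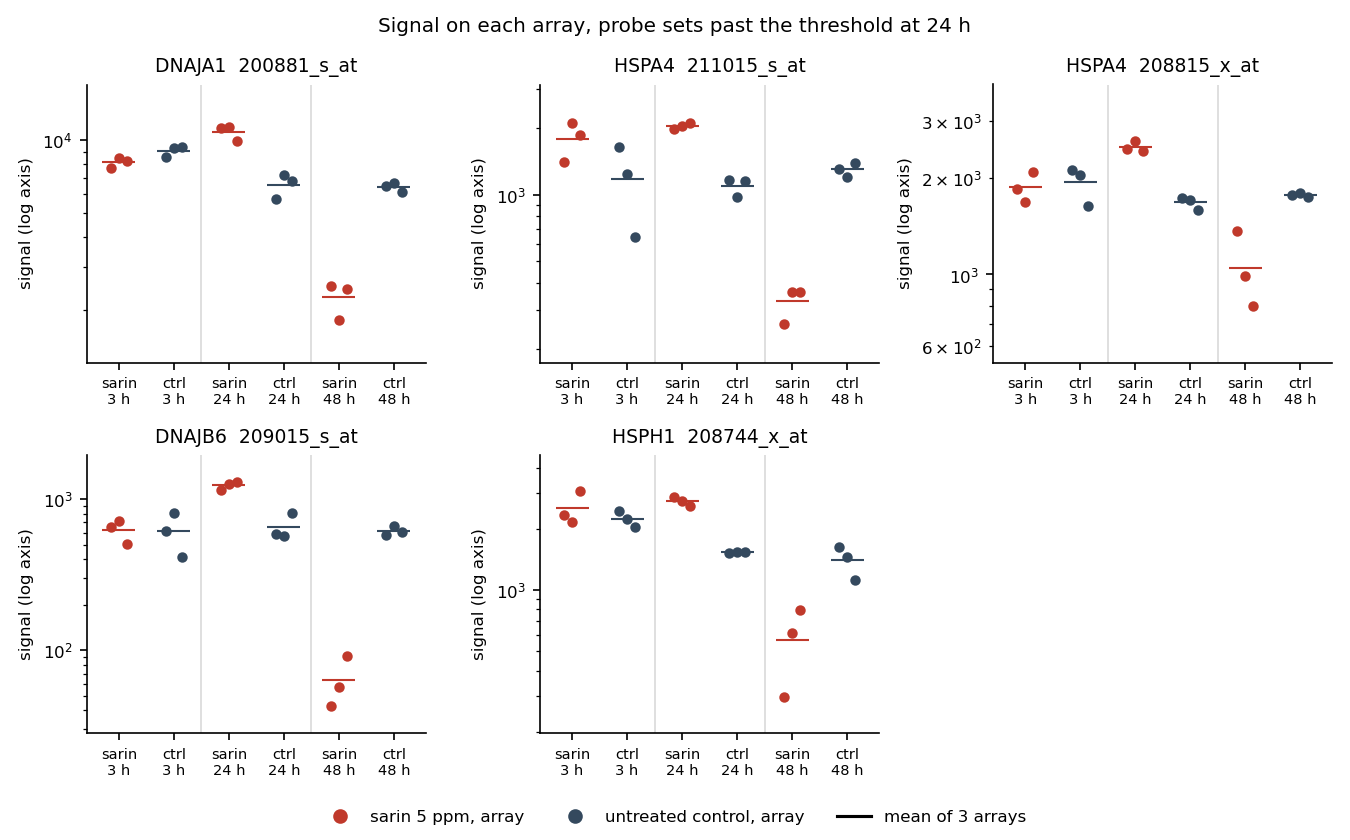
Signal on each array (log axis) for the 5 probe sets that passed the test at 24 h, in sarin-exposed (red) and control (blue) cells at 3, 24 and 48 h, with a bar at the mean of 3 arrays. At 24 h the sarin arrays lie above all control arrays in each panel, with means of 10864 against 6574 for DNAJA1. At 48 h the sarin arrays lie below all controls, and those of HSPA4 211015_s_at and DNAJB6 are below background.

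HSP90AA1 encodes the stress-inducible form of cytosolic Hsp90 and HSP90AB1 the constitutive form. None of their 6 probe sets passed the test at 24 h. HSP90AA1 211969_at had 14661, 15891 and 14029.9 with sarin, against 11937.5, 10720.4 and 10902 without, at 0.41 ± 0.12 (1.33-fold; adjusted p = 0.0506), and the groups did not overlap. HSP90AA1 211968_s_at had 15797, 15049 and 16277 against 13173, 10232 and 11423, at 0.44 ± 0.16 (adjusted p = 0.104), also without overlap. The other HSP90AA1 probe sets were closer to 0, with 210211_s_at at 0.05 ± 0.13 (adjusted p = 0.837) and 214328_s_at at 0.20 ± 0.17 (adjusted p = 0.516). HSP90AB1 200064_at had 32334, 33053 and 26459.8 with sarin, against 22741, 22167 and 22859 without, at 0.43 ± 0.18 (adjusted p = 0.159). HSP90AB1 214359_s_at had 10157, 11807 and 12653 against 8949, 8689 and 11535, at 0.25 ± 0.14 (adjusted p = 0.271), with overlap.

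At 48 h all 6 Hsp90 probe sets fell, by very different amounts. HSP90AB1 214359_s_at had 1465, 1443 and 1312 with sarin, against 12234, 10927 and 10256 without, and fell by 2.97 ± 0.14 on the log2 scale (7.83-fold; adjusted p = 3.83e-12). HSP90AB1 200064_at had 6045, 5933 and 6293 against 25034, 20671 and 17804, at -1.78 ± 0.18 (3.44-fold lower; adjusted p = 1.07e-07). The gene's 2 probe sets thus differed in size but not in direction. HSP90AA1 211969_at had 3286, 2912 and 3582 against 11378, 9771 and 9539.8, at -1.65 ± 0.12 (adjusted p = 1.42e-09), and 210211_s_at had 3864, 3562 and 4448 against 12231, 12787 and 12547, at -1.66 ± 0.13 (adjusted p = 2.22e-09). HSP90AA1 211968_s_at had 6306, 6953 and 8681 against 12554, 9681.5 and 9894.5, at -0.55 ± 0.16 (adjusted p = 0.00551). HSP90AA1 214328_s_at had 13433.5, 13637 and 17596 against 24101, 17356 and 17711, at -0.40 ± 0.17 (adjusted p = 0.0445), and its groups overlapped. Both of these last probe sets changed direction after quantile normalization, to 0.32 for 211968_s_at (adjusted p = 0.0223) and 0.46 for 214328_s_at (adjusted p = 0.00284). The call of 214328_s_at was also lost in 3 of the 6 fits that left out 1 array.

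HSPB1 encodes the small heat shock protein Hsp27. HSPB1 201841_s_at had 10555, 8942 and 8428 with sarin at 24 h, against 8069, 7969 and 9389.6 without, at 0.13 ± 0.19 (adjusted p = 0.709). The groups overlapped at that time. At 48 h it had 935, 1364 and 1869.7 with sarin, against 7235, 6843.5 and 6289 without, and fell by 2.33 ± 0.19 (5.02-fold; adjusted p = 3.27e-09).

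**Figure D4:**
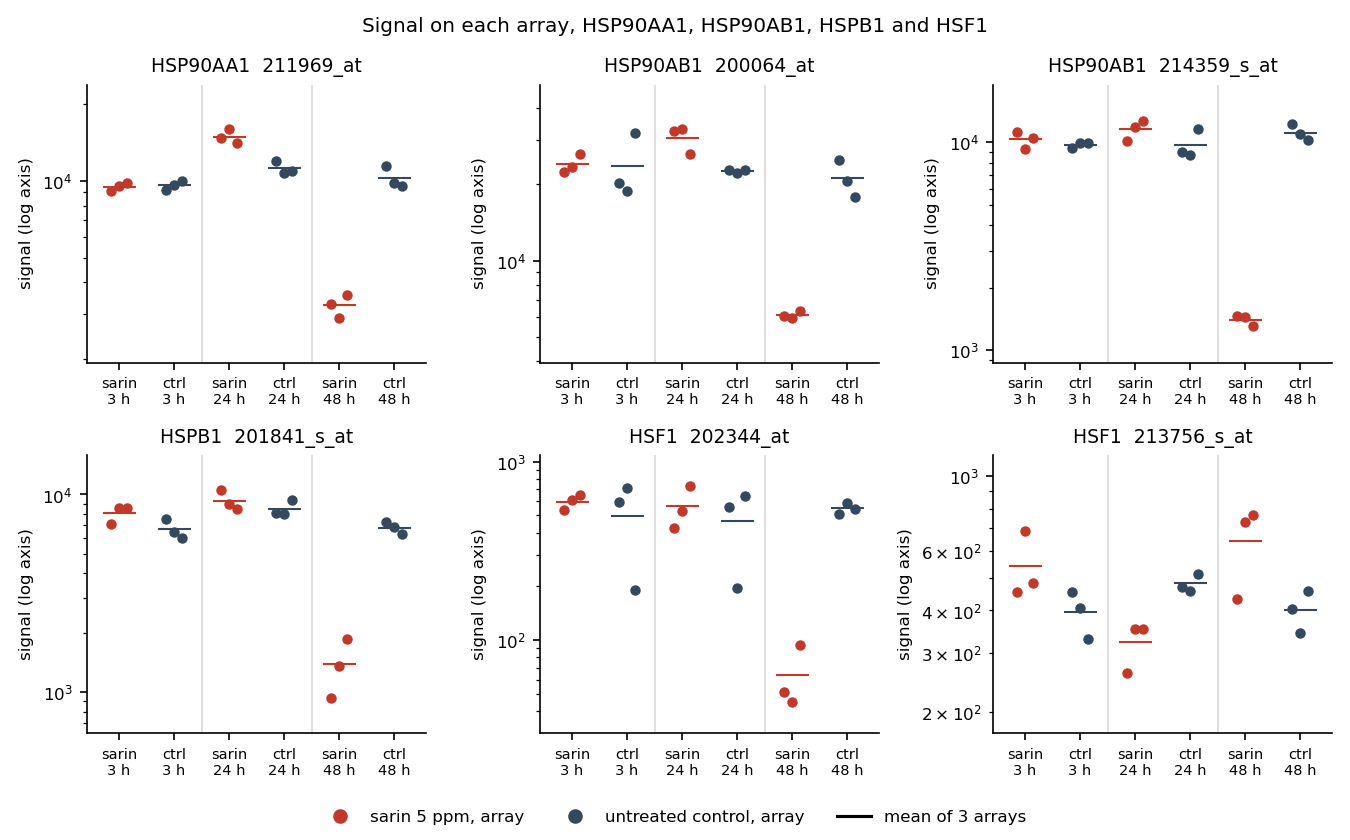
Signal on each array (log axis) for 1 HSP90AA1, both HSP90AB1, the HSPB1 and both HSF1 probe sets, in sarin-exposed (red) and control (blue) cells at 3, 24 and 48 h, with a bar at the mean of 3 arrays. At 48 h the sarin arrays lie below all controls in 5 of the 6 panels, and in HSF1 213756_s_at 2 of 3 lie above them, a direction that turned with spike-in scaling. In each HSF1 202344_at control group at 3 and 24 h, 1 array stands far below the other 2.

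Probe sets of 1 gene did not always move together. Over the 15 arrays other than the sarin arrays at 48 h, Pearson's r of log2 signal between probe sets of the same gene was 0.78 for HSP90AA1 210211_s_at and 211969_at, and 0.86 for 211969_at and 214328_s_at. It was 0.69 for HSPA4 208815_x_at and 211015_s_at, and -0.34 for HSPA4 208815_x_at and 211016_x_at. The pair of HSPH1 was at -0.10 and that of DNAJA1 at 0.52. These arrays share groups and scaling, so the correlations are descriptions. Of the 20 members, 12 have identifiers ending in _s_at and 3 in _x_at, which the array maker uses for probes that can match several transcripts, and the HSP90 genes have close copies in the genome whose signal cannot be told apart here.

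The difference between the sarin effects at 24 and 3 h passed the test for 1 member, where 0.608% of all probe sets passed. DNAJA1 200881_s_at had a sarin effect of 0.73 at 24 h and -0.16 at 3 h, a difference of 0.89 ± 0.19 (adjusted p = 0.0387). Its 3 h signals were 7719, 8424 and 8204 with sarin, against 8523, 9291 and 9408 without. The call was lost in 10 of the 12 fits that left out 1 array. Between 48 and 24 h, 17 members had a lower sarin effect and 1 a higher one at 48 h, where 62.2% of all probe sets passed, 32.1% higher and 30.1% lower. The members' median difference was -2.13. HSPA4 208814_at and 211016_x_at did not pass (adjusted p = 0.526 and 0.749), and HSF1 213756_s_at was the higher one, at 1.19 ± 0.37 (adjusted p = 0.00895). In untreated cells, DNAJA1 200881_s_at was the 1 member that passed the test between 24 and 3 h. Of all probe sets 5.6% did, 3.52% higher and 2.08% lower. At 48 against 3 h 0 members passed, and 0.33% of all probe sets did. DNAJA1 200881_s_at was at -0.50 ± 0.14 in that comparison (adjusted p = 0.136), close to its -0.47 at 24 against 3 h. At an unadjusted p under 0.05 stood 3 of the 20 members and 12.04% of all probe sets.

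Other cytosolic chaperone genes were taken from 6 lists, each gene by its probe set of highest mean log2 signal, and 51 of 69 genes were tested. At 24 h 6 of the 51 were higher and 0 lower, where 3.32% of all probe sets were higher and 3.66% lower. Their median log2 change was 0.11, against -0.10 over all probe sets, of which 41.4% lay above 0. Over the upper 40% of probe sets by mean log2 signal the median was -0.02. The chaperonin and prefoldin genes, whose products fold actin and tubulin, had 4 of 12 higher and 0 lower, and all 12 lay above 0, with a median of 0.50. CCT8 averaged 10482 ± 1442 with sarin and 4742 ± 1659 without (SD, n = 3 each; log2 change 1.19 ± 0.24; adjusted p = 0.00594). CCT3 was at 0.88 ± 0.17 (adjusted p = 0.00476), CCT6A at 0.51 ± 0.14 (adjusted p = 0.031) and CCT2 at 0.50 ± 0.15 (adjusted p = 0.0471). These 4 encode subunits of the same ring-shaped chaperonin. Of 13 J protein genes, DNAJC2, which encodes a ribosome-associated J protein, was higher, with 2555 ± 52.5 against 1459 ± 5.26 (0.80 ± 0.13; adjusted p = 0.00187). Of 11 Hsp90 co-chaperone genes, NUDC was higher at 0.70 ± 0.18 (adjusted p = 0.03), and all 11 lay above 0. None of 11 Hsp70 family and exchange factor genes, 3 small heat shock protein genes or 1 heat shock factor regulator passed at 24 h. At 3 h none of the 51 genes passed.

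At 48 h 32 of the 51 genes were lower and 6 higher, where 34.5% of all probe sets were lower and 34.3% higher. In a fit of only the upper 40% of probe sets by mean log2 signal, 3967 were lower and 2342 higher. The Hsp70 family and exchange factors had 9 of 11 lower, the chaperonin and prefoldin genes 10 of 12, and the Hsp90 co-chaperones 7 of 11. Of these co-chaperones 1 was higher, and the 1 heat shock factor regulator tested was lower. CCT4 averaged 1874 ± 218 with sarin and 12311 ± 1698 without, and fell by 2.70 ± 0.19 (adjusted p = 5.87e-10). PTGES3, which encodes the Hsp90 co-chaperone p23, averaged 2528 ± 112 with sarin and 10218 ± 664 without, and fell by 2.01 ± 0.12 (adjusted p = 1.15e-10). Of the 13 J protein genes 5 were lower and 3 higher, shares near those of all probe sets or below them, and DNAJC2 was among the higher ones at 1.13 ± 0.13 (adjusted p = 7.41e-07). Of the small heat shock proteins HSPB6, at 1.83 ± 0.40 (adjusted p = 0.000517), and HSPB7, at 1.34 ± 0.57 (adjusted p = 0.0433), were higher. The background also rose, to 411 to 443 on the 48 h sarin arrays against 103 to 161 on the 48 h controls. Its part in these 2 values was not tested. Of 6 mitochondrial chaperone genes, HSPE1 was higher at 24 h, with 9048 ± 969 against 3968 ± 861 (1.20 ± 0.18; adjusted p = 0.000645). None of 8 endoplasmic reticulum chaperone genes passed at 24 h, though 7 lay above 0.

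**Figure D5:**
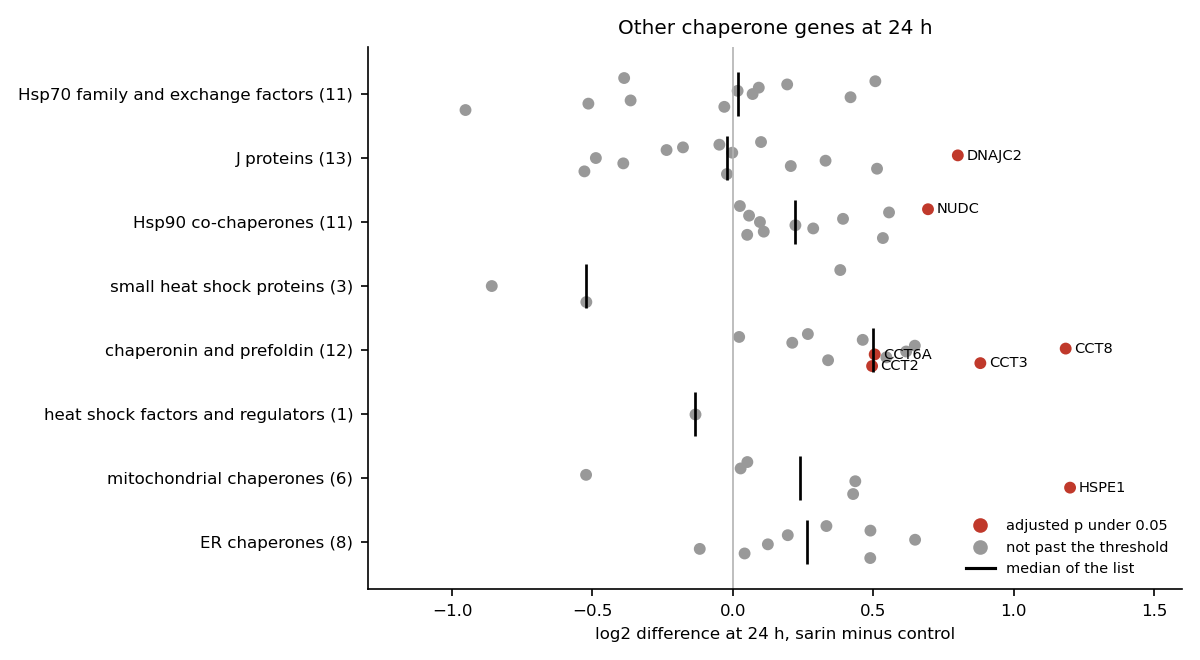
Log2 difference at 24 h, sarin minus control, for chaperone genes outside the 10 members, in 8 lists with the number of genes tested in brackets. Each point is 1 gene, red where the adjusted p was under 0.05, and bars are list medians. All 12 chaperonin and prefoldin genes lie above 0, with a median of 0.50, and 4 of them passed.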

How the data were processed

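Each array has 1 column of deposited linear signal intensities, for which the submitters' processing notes name MAS5; its version and scaling target were not given in the sources used. Genes were taken from the platform annotation: 19065 probe sets have 1 symbol, 1043 several and 2107 none, and 68 are controls. The trimmed mean intensity (lowest and highest 2% dropped) was 800.1 to 800.3 on all arrays. No 2 arrays held identical values (0 identical pairs).

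Values were analysed as log2(signal + 16), which shrinks the fold changes of low signals. The upper 60% of probe sets by mean log2 signal (8.02 or more, a signal of 244) were tested, 13329 in all. Group means of the 18 arrays were fitted in limma 3.58.1 (R 4.3.3) (lmFit, then eBayes with trend; residual degrees of freedom 12, prior 7.13), two-sided, with Benjamini-Hochberg adjustment over all probe sets tested. Values with ± are standard errors in log2 units, or the SD of signals where marked. A probe set at or below background on all 3 arrays of a group has only a bound on its fold change. The bound takes the background of each of these arrays in place of the signal. Beside a bound, the adjusted p is that of the fitted change and does not test the bound. Precision is limited by the 3 arrays per group.

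All members are named. Of the other chaperone lists, genes past the threshold at 24 h are named. At 48 h the genes of these lists are mostly counted, and only some are named. The members, lists and tests were chosen with earlier results of these data known. On simulated data for 24 h, in which 200 probe sets were changed, the fit recovered 4.48% of those changed by 0.5, 38.8% of those changed by 1 and 84.8% of those changed by 2 in log2 units, and 9.57% of calls were false. The simulated noise was independent between probe sets, and in the data 930 probe sets passed at 24 h. These rates need not hold for the data. Alternatives were pseudocounts, level filters, scalings, 1 probe set per gene, limma settings, fewer arrays, a replicate block, other controls and leaving out each array.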

Additional observations from a re-analysis of the deposited data

Results flagged for a closer look

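The sarin effect differed between times, by a test of the difference itself, for 18 of the 20 members. Between 24 and 3 h it differed for DNAJA1 200881_s_at, by 0.89 on the log2 scale, where 0.608% of all probe sets passed. Between 48 and 24 h the effect was lower at 48 h for 17 members and higher for 1, where 62.2% of all probe sets passed, 30.1% lower and 32.1% higher. For the exchange factors the differences were -1.34 for HSPA4 208815_x_at, -2.83 for HSPA4 211015_s_at, -2.48 for HSPH1 206976_s_at and -2.20 for HSPH1 208744_x_at. For Hsp90 they were -1.72, -0.99, -2.05 and -0.60 for HSP90AA1 210211_s_at, 211968_s_at, 211969_at and 214328_s_at, and -2.21 and -3.22 for HSP90AB1 200064_at and 214359_s_at. For the J proteins they were -1.32 and -2.25 for DNAJA1 200880_at and 200881_s_at, -2.58 and -0.89 for DNAJB1 200664_s_at and 200666_s_at, and -3.95 for DNAJB6. HSPB1 was at -2.46 and HSF1 202344_at at -3.26, while HSF1 213756_s_at was higher, at 1.19. The values of HSPA4 211015_s_at, DNAJB6 and HSF1 202344_at are fitted to 48 h sarin signals at or below background, and those of HSPH1 208744_x_at and DNAJB1 200664_s_at in part. All values against 48 h rest on the 3 arrays with high 3′ over 5′ ratios, whose part was not tested.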

How the results depend on the processing

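Of 2722 values of single members under alternatives, 2417 kept their direction and side of the threshold, 98 lost and 57 gained a call, 143 changed sign without a call in either fit, and 7 reversed; causes were not tested. After quantile normalization HSP90AA1 211968_s_at was at 0.32 and 214328_s_at at 0.46 at 48 h, and at 0.012 and 0.33 for 48 minus 24 h. With spike-in scaling HSF1 213756_s_at was at -1.43 at 48 h and -0.91 for 48 minus 24 h, and HSPB1 at -0.78 in controls at 48 against 3 h. Counts of calls as reported were 930 of all probe sets and 5 members at 24 h, 9172 and 19 at 48 h, 81 and 1 for 24 minus 3 h, 8290 and 18 for 48 minus 24 h, 746 and 1 for controls at 24 against 3 h, and 44 and 0 for controls at 48 against 3 h. At 24 h the count of all probe sets was 475 after quantile normalization, 1693 after median centring, 38 with spike-in scaling, 3094 with array weights, 2333 with the 6 arrays of that time alone, 1558 without the 48 h sarin arrays and 1465 with controls of the other times. Members at 24 h numbered 3 with a pseudocount of 1, 1 with no filter, 3 after quantile normalization, 12 after median centring, 0 with spike-in scaling, 3 with 1 probe set per gene, 2 without a trend, 10 with array weights and 8 with 6 arrays. At 48 h all probe sets numbered 14041 with no filter and 5075 with 1 probe set per gene, and members 9 with 1 per gene. For 24 minus 3 h all probe sets numbered 49 after quantile normalization, 124 after centring, 0 with spike-in scaling, 35 without a trend, 608 with array weights and 201 without the 48 h sarin arrays, and members 0 with no filter, quantile normalization, spike-in scaling or no trend and 2 with weights. For 48 minus 24 h, 1 probe set per gene gave 4569 and 9 members. For controls at 24 against 3 h all probe sets numbered 297 (quantile), 1880 (centring), 3966 (spike-in), 408 (1 per gene), 1886 (weights) and 1226 (without 48 h sarin arrays), and members, against 1 lower as reported, 0 (no filter, no trend), 2 higher (quantile), 1 higher and 1 lower, 2 in all (weights), 2 lower (without 48 h sarin arrays), 5 lower (centring) and 9 lower (spike-in). For controls at 48 against 3 h all probe sets numbered 22 (no filter), 8 (quantile), 4020 (spike-in), 14 (no trend), 658 (weights) and 80 (without 48 h sarin arrays), and members 9 lower (spike-in) and 2 lower (weights). Leaving out 1 array gave 0 to 1 probe sets and 0 members at 3 h, 260 to 626 and 1 at 24 h, 8362 to 8987 and 17 to 19 at 48 h, 24 to 150 and 0 to 1 for 24 minus 3 h, 7669 to 8389 and 17 to 18 for 48 minus 24 h, 313 to 963 and 0 to 1 for controls at 24 h, and 5 to 211 and 0 for controls at 48 h. Replicate numbers of the labels did not pair the arrays, with correlations of same-numbered deviations of -0.167 to 0.00806. A fit with the replicate number as a block gave 3 members at 24 h, 0 for 24 minus 3 h and 0 for controls at 24 against 3 h. Signals near the background, as on the 48 h sarin arrays, have only bounds.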

Other observations

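As a description over the 15 arrays other than those of sarin-exposed cells at 48 h, the genes whose log2 signal was most like that of DNAJA1 200881_s_at, among 8231 genes, were SQLE (Pearson's r = 0.938), DNAJC2 (0.927) and MRPL3 (0.922). Those most like HSP90AA1 214328_s_at were MORF4L2 (0.959), KPTN (0.902) and SCAF11 (0.899), and those most like HSPB1 were ANTKMT (0.914), HRAS (0.911) and STIP1 (0.903), which encodes a co-chaperone that links Hsp70 to Hsp90. These arrays share groups and scaling.

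In other chaperone lists at 48 h, the endoplasmic reticulum gene HSP90B1 was higher in sarin-exposed cells, at 3308 ± 75.0 against 1057 ± 149 (SD, n = 3 each; log2 change 1.64 ± 0.19; adjusted p = 5.25e-07), while 7 of the 8 tested genes of its list were lower. Among mitochondrial chaperones TRAP1 was higher, at 1.04 ± 0.21 (adjusted p = 0.000219), and GRPEL1, HSPD1, HSPE1 and HSPA9 were lower. The promoter windows of HSPA6, CHORDC1 and HSPD1 also held the heat shock element searched.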
